A study of Mus musculus with 20 samples.

Results

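The gene sets described here carry the epithelial-mesenchymal transition, tumour invasion or metastasis in their names. They were taken from the authors' deposited enrichment reports by name alone, as every set whose name contained _EMT_, MESENCHYMAL, METASTASIS, METASTATIC, INVASIVE or INVASIVENESS and neither COLLAGEN nor STEM_CELL. This gave 80 of the 3886 sets listed in any comparison. Of these, 32 had names ending in _DN, for genes lower in the state the name gives, and were kept apart from the other 48.

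The study sequenced RNA from 14 libraries of myeloid cells of adult C57BL/6 mice and from 6 libraries of mouse melanoma lines. Myeloid cells of bone marrow and of spleen were obtained by removing cells that carry CD3e, a T cell surface protein, which leaves blood cells of other kinds in place. Bone marrow had 3 libraries from healthy animals, 3 from animals bearing B16F10 tumours and 2 from animals bearing YUMM3.3 tumours, and spleen had 2 libraries of each kind. The lines, B16F10 and YUMM3.3, had 3 libraries each, from cultures seeded at 1000000 cells in a 100 mm plate and grown for 4 days. Both lines are of C57BL/6 origin; B16F10 was selected for metastasis in the mouse, and YUMM3.3 was derived from a genetically engineered mouse melanoma. The tumour site, the time since implantation, any pooling of animals and whether an animal gave both tissues are not given in the sources used here.

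In the epithelial-mesenchymal transition, epithelial cells give up the junctions held by E-cadherin and take on the motile, matrix-producing form of mesenchymal cells, under transcription factors such as SNAI1, TWIST1 and ZEB1 and often under TGF-beta. Melanoma cells come from the neural crest and not from an epithelium, but they too shift between a melanocytic, dividing state and a mesenchymal-like, invasive one. Myeloid cells are neither epithelial nor tumour cells. Most of the sets were defined in carcinomas and their cell lines, so a name tells where the genes were first listed and not what the cells studied here did.

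Each set had 1 value per comparison, the normalised enrichment score (NES), which gives how far the set's genes lie toward one end of the ranked gene list, scaled by permuted data. Scores carry a plus sign where the set was higher in the group named first. A set was called higher or lower at a deposited false discovery rate q (FDR q) below 0.05. These q values come from permutations by the authors and give no spread over animals or cultures, and no value per library or per gene was analysed here. The labelled cell types could therefore not be checked against marker genes, and the depth of the libraries is unknown. Directions rest on the names of the reports, and for the lines no other value bears on them. Shares of all listed sets are over those whose names have the same ending, _DN or not. Gene sets share genes, so their calls are not independent. The NES leaves a gap around 0, so a median of signed scores near 0 shows a split of the sets between the sides and not small scores.

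**Figure D1:**
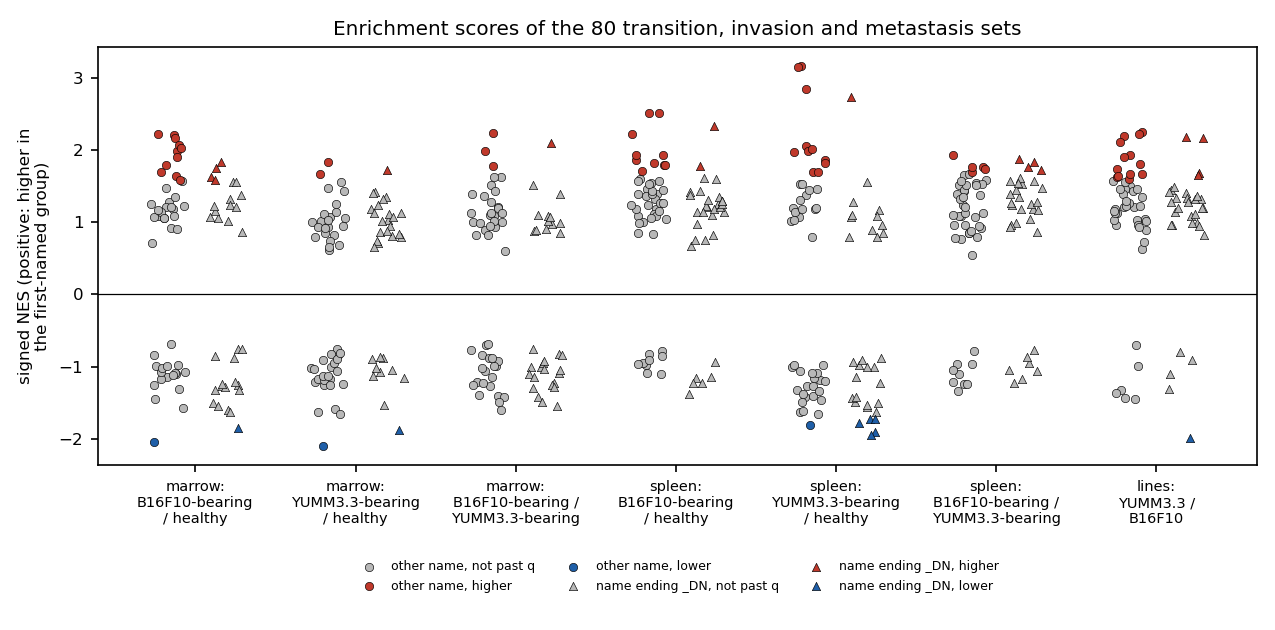
Signed NES (vertical axis, no unit) of the 80 sets in the 7 comparisons (horizontal axis), with 1 point per set. Circles are the 48 sets with names not ending in _DN and triangles the 32 ending in _DN; red and blue mark sets called higher or lower at FDR q below 0.05. The highest score, 3.16, was in spleen of YUMM3.3-bearing over healthy animals, and in the lines 42 of the 48 circles lie above 0.

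Between the lines, most scores pointed to YUMM3.3 and away from B16F10. Of the 48 sets, 13 were called higher in YUMM3.3 and 0 lower, 27.1% against 10.9% of all listed sets on the higher side and 1.6% on the lower. The median NES of the 48 was 1.25, against 1.06 for all listed sets. By role, 5 of 8 sets of the transition, 3 of 9 of invasion and 5 of 32 of metastasis were higher, and a set with several of these words was counted in each role. The 8 include CHARAFE_BREAST_CANCER_LUMINAL_VS_MESENCHYMAL_UP and CHARAFE_BREAST_CANCER_BASAL_VS_MESENCHYMAL_UP, whose genes are lower in mesenchymal breast cancer lines. For them a positive score points away from the mesenchymal form, and they were called in no comparison.

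The transition sets gave some of the largest scores in the lines. HOLLERN_EMT_BREAST_TUMOR_UP, genes high in mouse mammary tumours with a mesenchymal form, scored 2.21 in the authors' deposited table, with an FDR q listed as 0. Its counterpart HOLLERN_EMT_BREAST_TUMOR_DN, genes low in those tumours, scored -1.98 in the authors' deposited table (FDR q = 0.00121). This was the 1 pair of the 31 with both parts called in opposite directions in the lines. GOTZMANN_EPITHELIAL_TO_MESENCHYMAL_TRANSITION_UP, from mouse hepatocytes that underwent the transition, scored 2.19 in the authors' deposited table, with 57% of its 61 genes in the leading edge, the part of a set that lies before the peak of the running score. Its _DN counterpart stood at 1.49 in the authors' deposited table and was not called (FDR q = 0.0907). VERHAAK_GLIOBLASTOMA_MESENCHYMAL, the mesenchymal subtype of glioblastoma, had 1.91 in the authors' deposited table. JECHLINGER_EPITHELIAL_TO_MESENCHYMAL_TRANSITION_UP, from mouse mammary epithelial cells, and SARRIO_EPITHELIAL_MESENCHYMAL_TRANSITION_UP, from human breast epithelial cells, each had 1.67 in the authors' deposited table. CHARAFE_BREAST_CANCER_LUMINAL_VS_MESENCHYMAL_DN, whose genes are lower in luminal than in mesenchymal breast cancer lines and so higher in the mesenchymal ones, had 2.16 in the authors' deposited table. The CHARAFE_BREAST_CANCER_LUMINAL_VS_MESENCHYMAL_UP set, with genes higher in the luminal lines, had -1.43 in the authors' deposited table and was not called (FDR q = 0.261).

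Among the invasion sets, ANASTASSIOU_MULTICANCER_INVASIVENESS_SIGNATURE, a signature of invasive solid tumours rich in collagens and other stromal genes, had the largest score of all 80 sets in the lines, 2.24 in the authors' deposited table. SCHUETZ_BREAST_CANCER_DUCTAL_INVASIVE_UP, genes higher in invasive than in non-invasive ductal breast cancer, had 2.11 in the authors' deposited table, and POOLA_INVASIVE_BREAST_CANCER_UP had 1.63. For the first 2 of these 3 the FDR q was listed as 0, and for the third it was 0.0338.

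Of the 32 metastasis sets 30 had positive scores. Their median NES was 1.23 against 1.06 for all listed sets, and 15.6% were higher against 10.9% of all listed sets. PEDERSEN_METASTASIS_BY_ERBB2_ISOFORM_1, from a study of isoforms of the growth factor receptor ERBB2, led the metastasis sets with 1.94 in the authors' deposited table. SUNG_METASTASIS_STROMA_UP followed with 1.81 in the authors' deposited table, JI_METASTASIS_REPRESSED_BY_STK11 with 1.74, PEDERSEN_METASTASIS_BY_ERBB2_ISOFORM_4 with 1.62 and BIDUS_METASTASIS_UP with 1.60. Of the sets ending in _DN, 4 of 32 were higher in YUMM3.3 and 1 lower, against 15.5% and 1% of all listed _DN sets. Beside the set from the luminal comparison, these were CLASPER_LYMPHATIC_VESSELS_DURING_METASTASIS_DN, with 2.18 in the authors' deposited table, CROMER_METASTASIS_DN with 1.67 and OUELLET_CULTURED_OVARIAN_CANCER_INVASIVE_VS_LMP_DN with 1.65. Both _UP and _DN sets thus lay mostly on the positive side, and in the lines 21 of 31 pairs had both parts above 0. All listed sets leaned the same way. The median NES was 1.20 for the 32 _DN sets, near the 1.18 of all listed _DN sets, and pairs were not counted over all listed sets.

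Lists of the surrounding pathway were set beside these. Of 35 matrix and adhesion sets, 26 were higher in YUMM3.3 and 0 lower, 74.3% of the list, with a median NES of 1.86. Of 28 TGF-beta and SMAD sets, 14 were higher and 0 lower, and all 28 scores were positive, with a median of 1.59. Of 15 sets named for cell junctions, cadherin or epithelium, 2 were higher and 0 lower, with a median of 1.14. Set against the 10.9% higher and the median of 1.06 of all listed sets, the matrix list had 74.3% higher and the TGF-beta list 50%, while the junction list, at 13.3%, was near the share of all sets. As examples picked after their values were seen, KEGG_FOCAL_ADHESION had 2.00 in the authors' deposited table, KEGG_TGF_BETA_SIGNALING_PATHWAY 1.82, and KEGG_ADHERENS_JUNCTION 1.39, which was not called (FDR q = 0.146). ONDER_CDH1_TARGETS_2_UP, genes raised when E-cadherin is lost or blocked, had 1.93 in the authors' deposited table. By its name this set counts in the junction list, where it had the highest score and was 1 of the 2 called higher. For it a positive score points away from junctions held by E-cadherin.

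**Figure D2:**
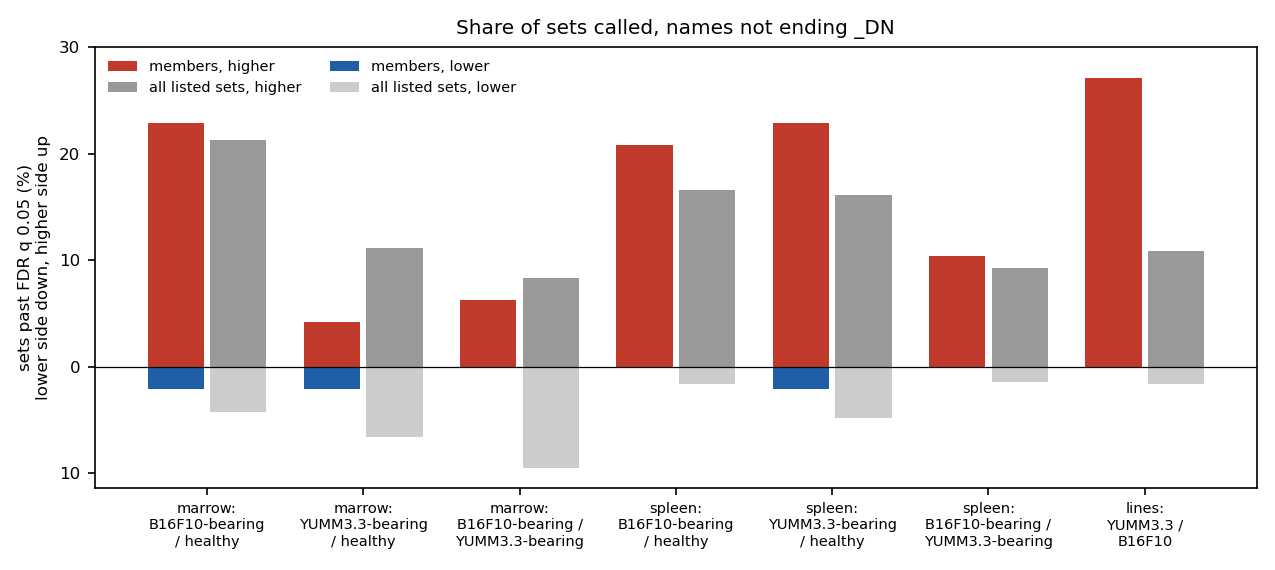
Percent of sets called at FDR q below 0.05 (vertical axis; higher side up, lower side down) in the 7 comparisons (horizontal axis), for the 48 sets with names not ending in _DN (coloured bars) and for all listed sets with such names (grey bars). In the lines 27.1% of the sets were higher against 10.9% of all sets, while in B16F10-bearing over healthy marrow the shares were 22.9% and 21.3%.

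The sets called in the lines and in the myeloid cells overlapped in part. Of the 13 sets higher in YUMM3.3 cells, 7 were called in no myeloid comparison: ANASTASSIOU_MULTICANCER_INVASIVENESS_SIGNATURE, HOLLERN_EMT_BREAST_TUMOR_UP, GOTZMANN_EPITHELIAL_TO_MESENCHYMAL_TRANSITION_UP, SCHUETZ_BREAST_CANCER_DUCTAL_INVASIVE_UP, PEDERSEN_METASTASIS_BY_ERBB2_ISOFORM_1, SUNG_METASTASIS_STROMA_UP and JI_METASTASIS_REPRESSED_BY_STK11. That is 53.8% of the 13, against 51.2% of all listed sets higher in the lines, so the share was near that of all sets. Below the threshold, these 7 were split by sign. In spleen of YUMM3.3-bearing over healthy animals 5 of the 7 scores were negative (median -1.33), while in spleen of B16F10-bearing over healthy animals 6 were positive (median 1.08), and in marrow of YUMM3.3-bearing over healthy animals 5 were positive (median 0.65). In the other direction, 15 of the 21 sets called in a myeloid comparison were not called in the lines, 71.4% against 87.2% of all listed sets. This gap goes with the calls in the lines themselves. There 35 of all 48 sets were not called and 27.1% were higher, against 10.9% higher and 1.6% lower of all listed sets.

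The sets called higher in the lines shared 4 members with B16F10-bearing over healthy marrow, 30.8% of the 13 and 36.4% of the 11, where all listed sets gave 19.8% and 10.1%. With B16F10-bearing over healthy spleen they also shared 4, 30.8% of the 13 and 40% of the 10, where all listed sets gave 16.2% and 10.6%. With YUMM3.3-bearing over healthy spleen they shared 3, 23.1% of the 13 and 27.3% of the 11, where all listed sets gave 13.2% and 8.87%. With YUMM3.3-bearing over healthy marrow 1 set was higher in both, JECHLINGER_EPITHELIAL_TO_MESENCHYMAL_TRANSITION_UP, 7.69% of the 13 and 50% of the 2, where all listed sets gave 5.99% and 5.83%. Of all 48 sets, 27.1% were higher in the lines, against 10.9% of all listed sets. The 36.4%, 40% and 27.3% are therefore to be read beside 27.1%, which the shares of all listed sets do not allow for. These counts are small and no test of the overlap was made.

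Across the 48 sets, the NES in the lines and in YUMM3.3-bearing over healthy animals had a Pearson's r of -0.13 in marrow and 0.088 in spleen, against -0.097 and -0.011 over all listed sets. With B16F10-bearing over healthy animals r was 0.25 in marrow and 0.36 in spleen, against -0.13 and -0.053 over all listed sets. These r values describe sets that share genes. The lines and the myeloid cells share no libraries.

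**Figure D3:**
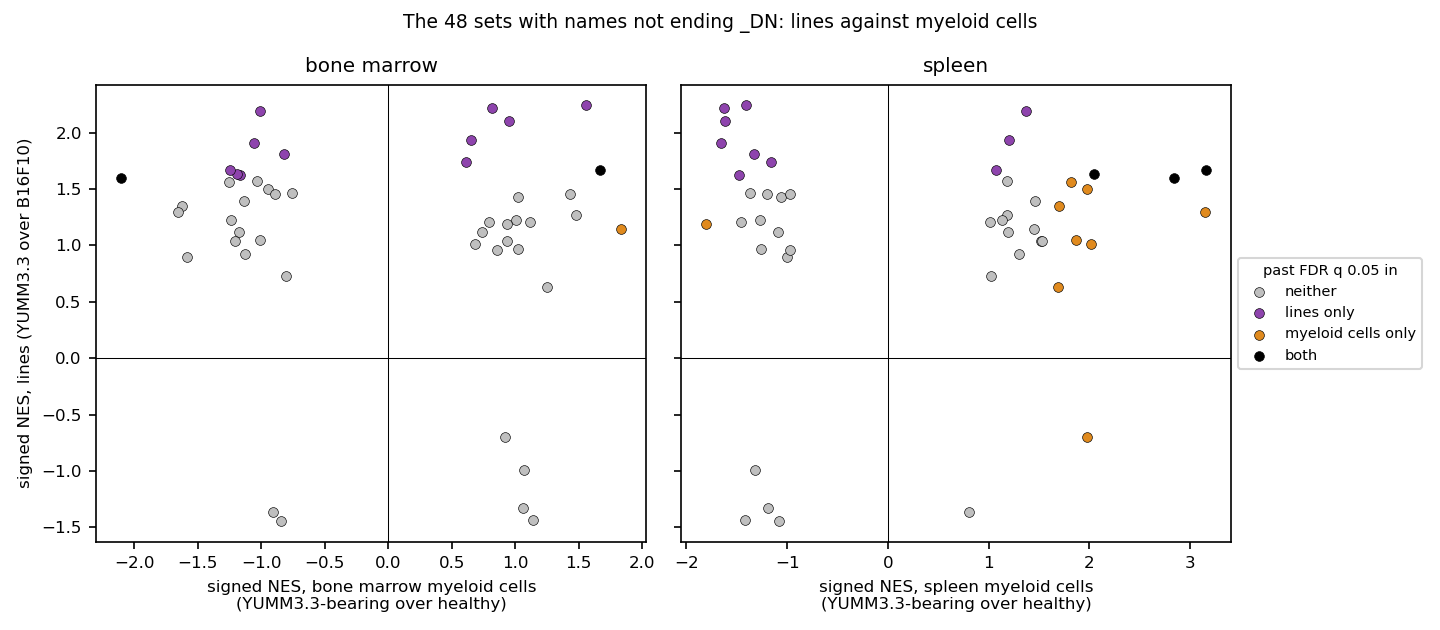
Signed NES in the lines, YUMM3.3 over B16F10 (vertical axis), against signed NES in myeloid cells of YUMM3.3-bearing over healthy animals (horizontal axis) in bone marrow (left) and spleen (right), with 1 point for each of the 48 sets with names not ending in _DN. Colours show where a set passed FDR q 0.05; in spleen 3 sets passed in both, and in marrow 2, of which 1 lay on opposite sides.

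Animals bearing one tumour or the other were also compared directly. In spleen, 5 of the 48 sets were higher in B16F10-bearing than in YUMM3.3-bearing animals and 0 lower, 10.4% against 9.22% of all listed sets on the higher side and 1.46% on the lower. The 5 sets were VERHAAK_GLIOBLASTOMA_MESENCHYMAL at 1.93 in the authors' deposited table, LEE_METASTASIS_AND_ALTERNATIVE_SPLICING_UP with 1.77, CLASPER_LYMPHATIC_VESSELS_DURING_METASTASIS_UP with 1.76, PEDERSEN_METASTASIS_BY_ERBB2_ISOFORM_4 with 1.73 and ALONSO_METASTASIS_UP with 1.69. VERHAAK_GLIOBLASTOMA_MESENCHYMAL and PEDERSEN_METASTASIS_BY_ERBB2_ISOFORM_4 were thus higher in the YUMM3.3 line and in spleen of animals that bore the other tumour. These 2 are 15.4% of the 13 sets higher in the lines and 40% of the 5, where all listed sets gave 14.1% and 16.5%. Of all 48 sets, 27.1% were higher in the lines. Of the 48 sets, 36 were positive both in the lines and in this spleen comparison, 75% against 51% of all listed sets. Most were positive in each comparison alone, 42 in the lines and 39 in spleen, so the 75% does not by itself show a link. The _DN sets gave 4 of 32 higher with B16F10 and 0 lower, against 11.2% and 1.5% of all listed _DN sets. WINNEPENNINCKX_MELANOMA_METASTASIS_DN led them with 1.88 in the authors' deposited table, before SARRIO_EPITHELIAL_MESENCHYMAL_TRANSITION_DN with 1.84 and JECHLINGER_EPITHELIAL_TO_MESENCHYMAL_TRANSITION_DN with 1.77.

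In bone marrow, 3 of the 48 sets were higher in B16F10-bearing than in YUMM3.3-bearing animals and 0 lower, 6.25% against 8.34% of all listed sets on the higher side and 9.51% on the lower. All 3 were metastasis sets: BIDUS_METASTASIS_UP, from endometrial cancers with lymph node spread, at 2.24 in the authors' deposited table, WINNEPENNINCKX_MELANOMA_METASTASIS_UP, from primary melanomas that later spread, at 1.98, and CHANDRAN_METASTASIS_UP, from prostate cancer, at 1.77. BIDUS_METASTASIS_UP was also higher in the YUMM3.3 line, opposite to the marrow. This 1 set is 7.69% of the 13 sets higher in the lines and 33.3% of the 3, where all listed sets gave 8.08% and 10.5%. None of these 3 marrow sets was among the 5 called in spleen. Such overlap was rare over all listed sets too. There, 4.28% of those higher in marrow and 3.87% of those higher in spleen were higher in both. The single _DN set called, of 32, was VANTVEER_BREAST_CANCER_METASTASIS_DN, at 2.09 in the authors' deposited table, with 7.11% of all listed _DN sets higher and 4.11% lower.

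In bone marrow of B16F10-bearing over healthy animals, 11 of the 48 sets were higher and 1 lower, 22.9% and 2.08% against 21.3% and 4.28% of all listed sets. The share on the higher side was thus near that of all sets. The transition sets held 4 of their 8 higher. JECHLINGER_EPITHELIAL_TO_MESENCHYMAL_TRANSITION_UP had the largest score, 2.22 in the authors' deposited table (FDR q = 5.05e-05), SARRIO_EPITHELIAL_MESENCHYMAL_TRANSITION_UP had 2.17 and VERHAAK_GLIOBLASTOMA_MESENCHYMAL 2.07. ALONSO_METASTASIS_EMT_UP, from melanomas that metastasised, had 1.70 in the authors' deposited table (FDR q = 0.0240). Of the invasion sets, OUELLET_OVARIAN_CANCER_INVASIVE_VS_LMP_UP, genes higher in invasive ovarian cancer than in tumours of low malignant potential, had 2.20 in the authors' deposited table, and WANG_TUMOR_INVASIVENESS_UP, from invasive mammary tumour cells, had 1.91. Of the metastasis sets, WINNEPENNINCKX_MELANOMA_METASTASIS_UP had 2.03 in the authors' deposited table and ALONSO_METASTASIS_UP 1.98.

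The 1 set lower in B16F10-bearing marrow was PEDERSEN_METASTASIS_BY_ERBB2_ISOFORM_6, with -2.04 in the authors' deposited table and 58% of its 26 genes in the leading edge. Of the _DN sets, 4 of 32 were higher and 1 lower, against 15.7% and 7.73% of all listed _DN sets. The largest was GOTZMANN_EPITHELIAL_TO_MESENCHYMAL_TRANSITION_DN, with 1.83 in the authors' deposited table, while its _UP counterpart stood at 1.06 and was not called. The lower one was HOLLERN_EMT_BREAST_TUMOR_DN, with -1.85 in the authors' deposited table, the same direction as in the lines.

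In bone marrow of YUMM3.3-bearing over healthy animals, few of the sets were called. There were 2 of 48 higher and 1 lower, 4.17% and 2.08% against 11.1% and 6.62% of all listed sets. The higher ones were WANG_TUMOR_INVASIVENESS_UP, with 1.83 in the authors' deposited table, and JECHLINGER_EPITHELIAL_TO_MESENCHYMAL_TRANSITION_UP, with 1.67. Both were also higher with B16F10. The lower one was BIDUS_METASTASIS_UP, with -2.10 in the authors' deposited table (FDR q = 0.00190). Of the 32 _DN sets, PROVENZANI_METASTASIS_DN was higher, with 1.73 in the authors' deposited table, and VANTVEER_BREAST_CANCER_METASTASIS_DN lower, with -1.87, against 4.11% and 6.11% of all listed _DN sets. The 48 scores were split evenly, with 24 positive and 24 negative.

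In spleen of B16F10-bearing over healthy animals, 10 of the 48 sets were higher and 0 lower, 20.8% against 16.6% of all listed sets on the higher side and 1.66% on the lower, and 39 of the 48 scores were positive. SARRIO_EPITHELIAL_MESENCHYMAL_TRANSITION_UP and WINNEPENNINCKX_MELANOMA_METASTASIS_UP each scored 2.51 in the authors' deposited table, and BIDUS_METASTASIS_UP had 2.22. POOLA_INVASIVE_BREAST_CANCER_UP and ALONSO_METASTASIS_UP each had 1.93 in the authors' deposited table. The transition sets were higher in 3 of 8 cases, invasion in 2 of 9 and metastasis in 6 of 32. Of the 10 sets higher in spleen, 8 were also higher in marrow of B16F10-bearing animals, 80% of the 10 and 72.7% of the 11, where all listed sets gave 63.8% and 49.8%. Across the 48 sets, Pearson's r between the tissues was 0.62, against 0.57 over all listed sets. The _DN sets gave 2 of 32 higher and 0 lower, against 16.5% and 1.37% of all listed _DN sets, namely VANTVEER_BREAST_CANCER_METASTASIS_DN with 2.33 in the authors' deposited table and SUNG_METASTASIS_STROMA_DN with 1.78.

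In spleen of YUMM3.3-bearing over healthy animals, the 48 scores covered their widest range, from -1.80 to 3.16. Of the 48, 11 were higher and 1 lower, 22.9% and 2.08% against 16.1% and 4.8% of all listed sets. SARRIO_EPITHELIAL_MESENCHYMAL_TRANSITION_UP had the highest score of all 80 sets in any comparison, 3.16 in the authors' deposited table, followed by WINNEPENNINCKX_MELANOMA_METASTASIS_UP with 3.15 and BIDUS_METASTASIS_UP with 2.85. POOLA_INVASIVE_BREAST_CANCER_UP had 2.05 in the authors' deposited table and WANG_METASTASIS_OF_BREAST_CANCER_ESR1_UP, from breast cancers with estrogen receptor, 2.02. JAEGER_METASTASIS_UP, genes higher in melanoma metastases than in primary melanomas, and RAMASWAMY_METASTASIS_UP, from solid tumours, each had 1.98 in the authors' deposited table. The set of 62 genes LEE_METASTASIS_AND_ALTERNATIVE_SPLICING_UP was lower, with -1.80 in the authors' deposited table. By role, 8 of 32 metastasis sets (25%), 2 of 9 invasion sets (22.2%) and 1 of 8 transition sets (12.5%) were higher, beside the 16.1% of all listed sets, and no difference between roles was tested. Of the 8 transition scores 4 were negative. HOLLERN_EMT_BREAST_TUMOR_UP had -1.63 and VERHAAK_GLIOBLASTOMA_MESENCHYMAL -1.65 in the authors' deposited table, neither of them called (FDR q = 0.0674 and 0.0618). The others, also not called, were CHARAFE_BREAST_CANCER_LUMINAL_VS_MESENCHYMAL_UP at -1.42 and CHARAFE_BREAST_CANCER_BASAL_VS_MESENCHYMAL_UP at -1.32 in the authors' deposited table. Their genes are lower in mesenchymal lines, so their negative scores point the opposite way.

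Of the 32 _DN sets of this comparison 20 had negative scores, with a median NES of -0.99, near the -0.91 of all listed _DN sets. There were 5 of 32 lower and 1 higher, against 7.23% and 13.8% of all listed _DN sets. The lower ones were NAKAMURA_METASTASIS_MODEL_DN with -1.95 in the authors' deposited table, JECHLINGER_EPITHELIAL_TO_MESENCHYMAL_TRANSITION_DN with -1.90, WINNEPENNINCKX_MELANOMA_METASTASIS_DN with -1.78, and SARRIO_EPITHELIAL_MESENCHYMAL_TRANSITION_DN and BIDUS_METASTASIS_DN with -1.72 each. For 3 pairs (WINNEPENNINCKX_MELANOMA_METASTASIS, SARRIO_EPITHELIAL_MESENCHYMAL_TRANSITION and BIDUS_METASTASIS) the _UP set was called higher and the _DN set lower. Of the 31 pairs, 13 had a positive _UP and a negative _DN score and 5 the reverse, and the median difference, _UP minus _DN, was 0.37 in NES. In YUMM3.3-bearing over healthy marrow the counts were 6 and 13, with a median difference of -0.16. In the lines they were 4 and 6, with a median difference of -0.091, so that 10 of the 31 pairs in the lines lay on opposite sides of 0 against 18 in spleen. In the CHARAFE pairs the _DN part holds the genes higher in mesenchymal lines, so a reversed pair there points to the mesenchymal form. Both of these pairs were among the reversed 6 in the lines, and the luminal one was among the reversed 5 in spleen. In marrow both were among the 6 with a positive _UP score. Pairs were not counted over all listed sets, and no test of these differences between comparisons was made.

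**Figure D4:**
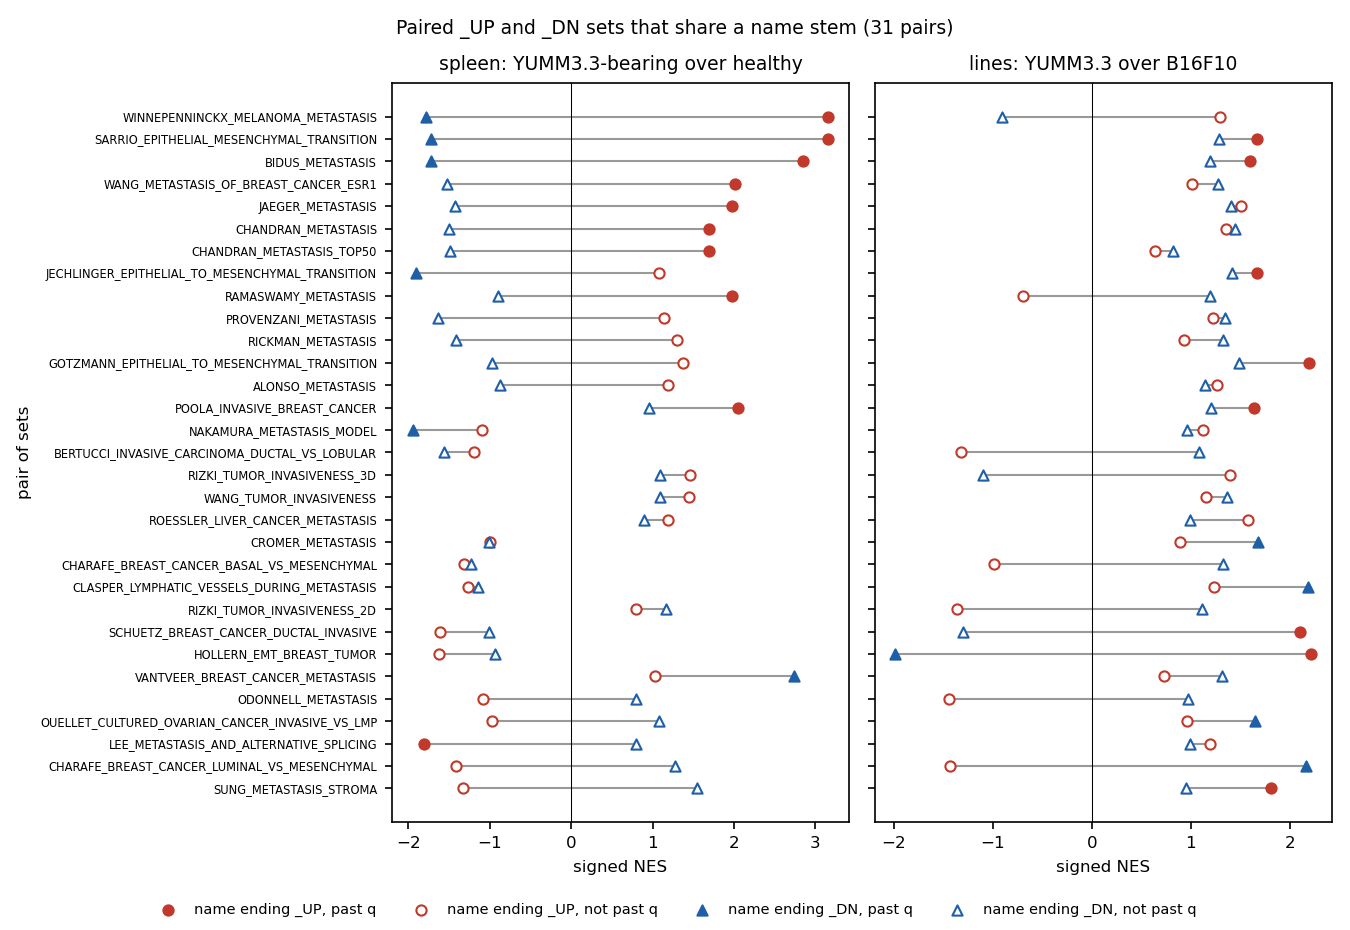
Signed NES (horizontal axis) of the _UP set (circle) and the _DN set (triangle) of each of the 31 pairs (vertical axis), in spleen of YUMM3.3-bearing over healthy animals (left) and in the lines, YUMM3.3 over B16F10 (right); filled marks passed FDR q 0.05. In spleen 3 pairs had _UP called higher and _DN called lower, and in the lines 1 pair did, HOLLERN_EMT_BREAST_TUMOR.

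In animals with YUMM3.3 tumours, several of these sets had opposite signs in marrow and spleen. BIDUS_METASTASIS_UP had -2.10 in marrow and 2.85 in spleen, and VANTVEER_BREAST_CANCER_METASTASIS_DN -1.87 and 2.74, each called in both tissues in the authors' deposited table. WINNEPENNINCKX_MELANOMA_METASTASIS_UP had -1.66 in marrow, where it was not called (FDR q = 0.0522), and 3.15 in spleen in the authors' deposited table. Of the 48 sets, 66.7% had scores of opposite sign in the tissues, against 55.9% of all listed sets, and Pearson's r across the 48 was -0.40, against -0.14 over all listed sets. The difference between tissues was not tested, since no value per library was analysed. Marrow and spleen have separate libraries, but animals may be shared.

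The 5 sets called in 4 or more comparisons are given here across all 7, beside a cell division set picked after its values were seen. SARRIO_EPITHELIAL_MESENCHYMAL_TRANSITION_UP had 2.17, -1.25 and 1.63 in marrow (B16F10-bearing over healthy, YUMM3.3-bearing over healthy, B16F10-bearing over YUMM3.3-bearing), 2.51, 3.16 and 1.35 in spleen in the same order, and 1.67 in the lines, in the authors' deposited table. In that order, WINNEPENNINCKX_MELANOMA_METASTASIS_UP had 2.03, -1.66, 1.98, 2.51, 3.15, 0.88 and 1.30 in the authors' deposited table. BIDUS_METASTASIS_UP had 1.63, -2.10, 2.24, 2.22, 2.85, 0.93 and 1.60 in the authors' deposited table. VANTVEER_BREAST_CANCER_METASTASIS_DN, a set with the opposite ending, had 1.76, -1.87, 2.09, 2.33, 2.74, 1.54 and 1.32 in the authors' deposited table. In these 4, YUMM3.3-bearing over healthy marrow was the single negative value and YUMM3.3-bearing over healthy spleen the highest. JECHLINGER_EPITHELIAL_TO_MESENCHYMAL_TRANSITION_UP differed, with 2.22, 1.67, -0.99, 1.71, 1.07, 1.66 and 1.67 in the authors' deposited table, so that it was called higher in YUMM3.3-bearing over healthy marrow and not called in YUMM3.3-bearing over healthy spleen. ROSTY_CERVICAL_CANCER_PROLIFERATION_CLUSTER, a set of genes of dividing cells and no member of these sets, had 2.17, -1.47, 1.87, 2.94, 3.55, 1.62 and 1.46 in the authors' deposited table. It too was negative in YUMM3.3-bearing over healthy marrow alone. The 3 comparisons of a tissue share libraries, so these profiles are given side by side with no measure of likeness. The part of cell division in the calls was not tested, because the genes the sets share were not analysed here.

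The 2 sets with the highest scores in the lines were called there alone. ANASTASSIOU_MULTICANCER_INVASIVENESS_SIGNATURE had 1.08, 1.56, -1.41, 1.08, -1.41, 1.43 and 2.24 in the same order, in the authors' deposited table. HOLLERN_EMT_BREAST_TUMOR_UP had 1.28, 0.82, 0.90, 1.08, -1.63, 1.51 and 2.21 in the authors' deposited table. SARRIO_EPITHELIAL_MESENCHYMAL_TRANSITION_UP, BIDUS_METASTASIS_UP and JECHLINGER_EPITHELIAL_TO_MESENCHYMAL_TRANSITION_UP, given above, were called in the lines as well. NABA_CORE_MATRISOME, the collagens, glycoproteins and proteoglycans of the matrix, had -1.27, 1.84, -1.84, 1.05, -1.06, 1.07 and 2.32 in the authors' deposited table, and was called in YUMM3.3-bearing over healthy marrow, in B16F10-bearing over YUMM3.3-bearing marrow and in the lines. Both comparison sets were picked after their values were seen.

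**Figure D5:**
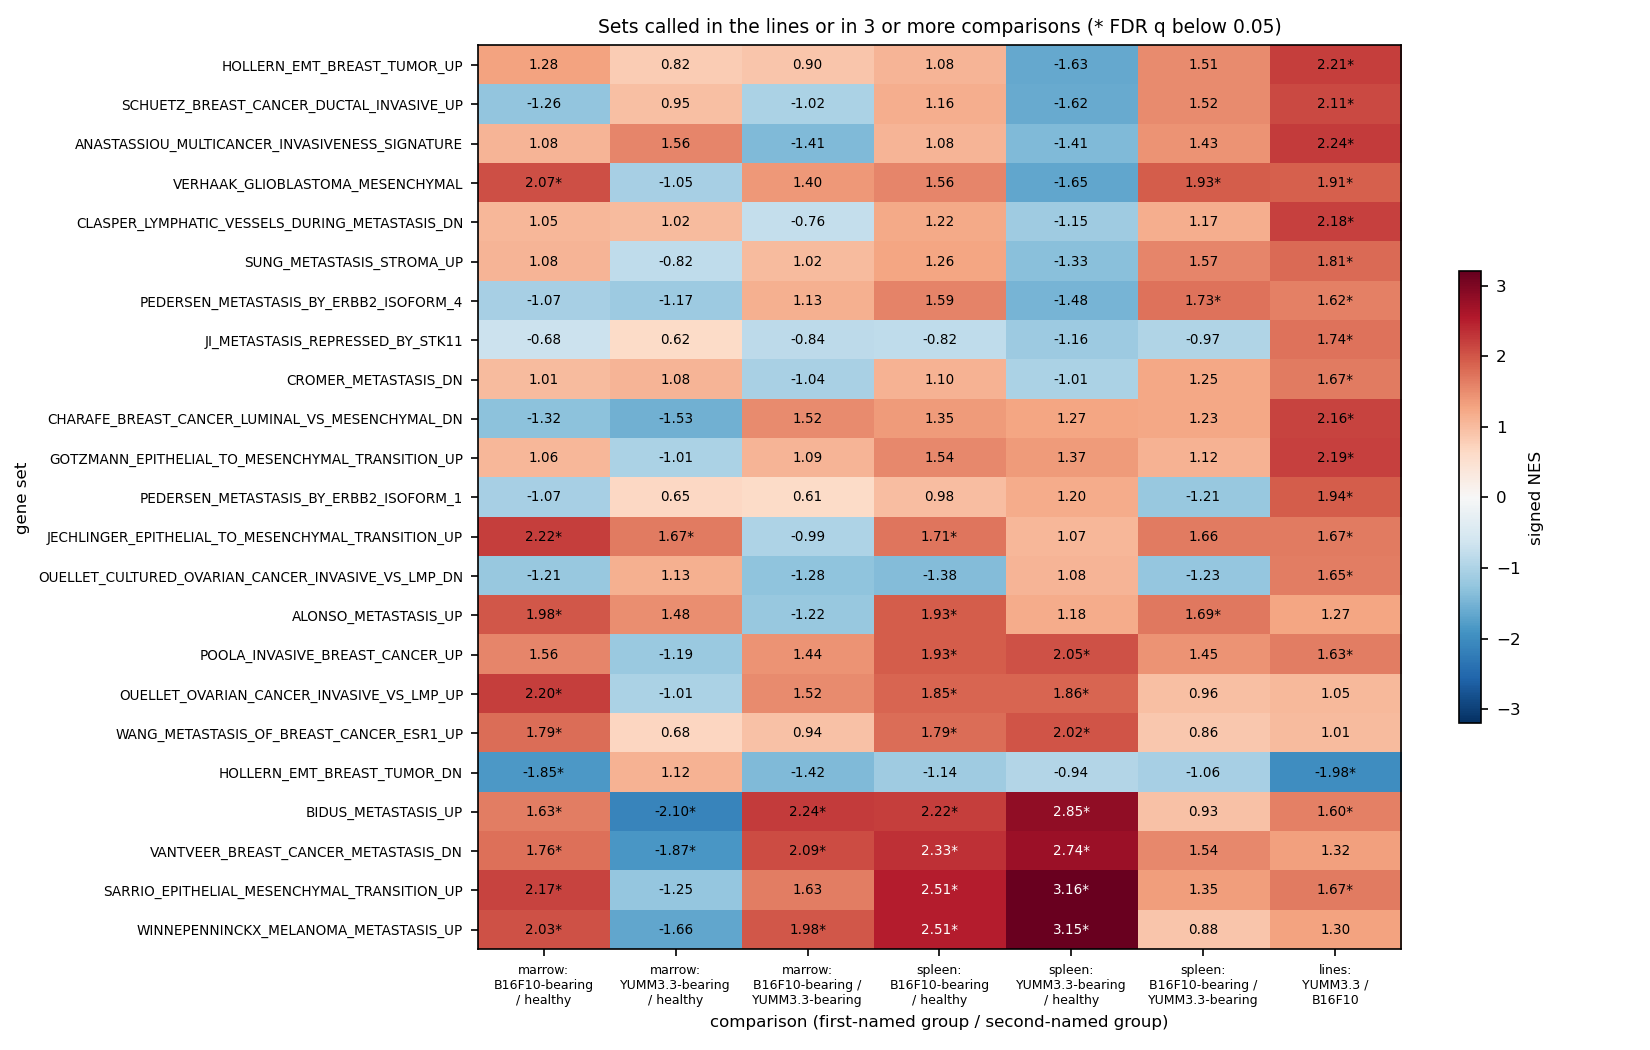
Signed NES (colour and number) of each set called in the lines or in 3 or more comparisons (vertical axis), in the 7 comparisons (horizontal axis), with an asterisk at FDR q below 0.05. The sets are ordered by the score in the lines minus that in YUMM3.3-bearing over healthy spleen: HOLLERN_EMT_BREAST_TUMOR_UP, at the top, has 2.21 and -1.63, and WINNEPENNINCKX_MELANOMA_METASTASIS_UP, at the bottom, 1.30 and 3.15.

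The same lists were counted in the myeloid cells. Of the 35 matrix and adhesion sets, 0 were higher and 7 lower in spleen of YUMM3.3-bearing over healthy animals, with a median NES of -1.33, which is 0% and 20% against 16.1% and 4.8% of all listed sets. In marrow of B16F10-bearing over healthy animals 0 were higher and 4 lower, with a median of -1.22, which is 0% and 11.4% against 21.3% and 4.28%. YUMM3.3-bearing over healthy marrow gave 2 higher and 0 lower (median 0.89), and B16F10-bearing over healthy spleen 1 and 0 (median 0.90). B16F10-bearing over YUMM3.3-bearing animals gave 0 and 5 in marrow (median -0.99) and 2 and 0 in spleen (median 1.17). In these 4 comparisons all listed sets had 11.1%, 16.6%, 8.34% and 9.22% higher, and 6.62%, 1.66%, 9.51% and 1.46% lower. TGF-beta and SMAD sets were called in 0 to 3 of 28 cases in each direction of the 6 myeloid comparisons, and the junction list in 0 to 2 of 15. In YUMM3.3-bearing over healthy spleen the junction list had 2 lower and 0 higher, 13.3% and 0% against 4.8% and 16.1% of all listed sets. There 13 of its 15 scores were negative, with a median of -1.39. It also had 1 lower in B16F10-bearing over healthy marrow, 6.67% against 4.28%. In B16F10-bearing over YUMM3.3-bearing spleen 1 was higher, 6.67% against 9.22%. At most 10.7% of the TGF-beta list was called on a side, in B16F10-bearing over healthy marrow, where 21.3% of all listed sets were higher. The background shares differ between comparisons, and no difference between lines and myeloid cells was tested for these lists. Sets of other blood cells, picked after their values were seen, were called in the same comparisons. In marrow of B16F10-bearing over healthy animals HADDAD_B_LYMPHOCYTE_PROGENITOR had -2.74 in the authors' deposited table. KEGG_T_CELL_RECEPTOR_SIGNALING_PATHWAY had -2.37 in spleen of B16F10-bearing over healthy animals in the authors' deposited table, in cells from which CD3e-positive cells had been removed. A set of platelet-specific genes had -1.75 in B16F10-bearing over healthy marrow, -2.51 in YUMM3.3-bearing over healthy spleen, 2.23 in B16F10-bearing over YUMM3.3-bearing spleen and 1.77 in the cultured lines, all called, in the authors' deposited table. Their part in the scores given here was not tested, and in bulk samples fewer cells of a type and less RNA per cell cannot be told apart.

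Sets from 1 source were not always called together. In marrow of B16F10-bearing over healthy animals the 4 sets for ERBB2 isoforms had -1.07 (PEDERSEN_METASTASIS_BY_ERBB2_ISOFORM_1), -1.07 (PEDERSEN_METASTASIS_BY_ERBB2_ISOFORM_4), -2.04 (PEDERSEN_METASTASIS_BY_ERBB2_ISOFORM_6) and -1.02 (PEDERSEN_METASTASIS_BY_ERBB2_ISOFORM_7) in the authors' deposited table, and the third of these alone was called. In spleen of YUMM3.3-bearing over healthy animals PEDERSEN_METASTASIS_BY_ERBB2_ISOFORM_7 alone was called, with 1.82 in the authors' deposited table, and the other three had 1.20, -1.48 and -1.37. Among the melanoma sets of ALONSO, ALONSO_METASTASIS_UP and ALONSO_METASTASIS_EMT_UP were both higher with B16F10 in marrow and in spleen, while ALONSO_METASTASIS_NEURAL_UP was called nowhere.

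With a looser threshold of FDR q below 0.25, the lines gave 24 of 48 sets higher and 0 lower, against 33.6% and 3.94% of all listed sets. In marrow at that threshold B16F10-bearing over healthy animals gave 17 higher and 3 lower (all sets 38% and 16.1%), YUMM3.3-bearing over healthy animals 5 and 4 (20.9% and 20.5%) and B16F10-bearing over YUMM3.3-bearing animals 9 and 5 (21.7% and 19.1%). In spleen the counts in the same order were 23 and 0 (34.2% and 6.04%), 17 and 12 (23.3% and 23.8%) and 19 and 0 (27% and 5.26%).

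Of the 48 sets, 9 were called in 3 or more comparisons (18.8%), 19 in 1 or 2 (39.6%) and 20 in none (41.7%), against 19.3%, 36.4% and 44.3% of all listed sets. The 20 had scores from -1.59 to 1.62, and the smallest FDR q among them, 0.0551, was that of ROESSLER_LIVER_CANCER_METASTASIS_UP in the authors' deposited table. Among them were TAVAZOIE_METASTASIS, LIAO_METASTASIS, LANDEMAINE_LUNG_METASTASIS, NAKAMURA_METASTASIS and both _UP sets of the RIZKI invasiveness study. Of the 32 _DN sets, 1 was called in 3 or more comparisons (3.12%), 14 in 1 or 2 (43.8%) and 17 in none (53.1%), against 16.8%, 38.3% and 44.9% of all listed _DN sets. The 17 had scores from -1.63 to 1.56. In the lines, the leading edges of the 13 called sets held 21% to 57% of the set, with a median of 40% against 37% for all called sets, and ended within the first 5% to 18% of the ranked list. In YUMM3.3-bearing over healthy spleen, those of the 11 sets called higher held 20% to 65%, with a median of 45% against 48.5%, and ended within the first 8% to 23%.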

How the data were processed

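RNA from 20 libraries was sequenced. Per the submitters' processing notes, the mm10 build was used with DESeq2 1.22.2, featureCounts 1.6.0, STAR 2.7.1a and FastQC 0.11.8, in roles not stated. The values analysed were 14 enrichment reports for 7 comparisons, 1 report per direction. Every row the authors deposited holds, per the file headers, a set's size, enrichment score, normalised enrichment score, rank at the maximum and leading edge. Per the file headers, the deposited p-values are a nominal p, an FDR q and a family-wise p, from permutations of a kind not stated.

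Scores were signed by the report that lists the set, since the deposited sign is positive for healthy animals in the tumour-against-healthy reports. As a check, the score of B16F10-bearing against YUMM3.3-bearing animals was correlated over the 80 sets with the difference of the tumour-against-healthy scores: Pearson's r was 0.765 in marrow and 0.702 in spleen, and at most 0.253 with any 1 comparison turned. It would not show all comparisons of a tissue turned together, nor the lines.

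Counts and medians were taken with pandas 2.3.3, beside those of all listed sets. No set test or fit over libraries was made. The counting was tested on simulated reports. Sets were named by rule: for each comparison and side, up to 5 with the largest score size past the threshold (3 for _DN), those called in 3 or more comparisons, pairs called in the lines, and sets called on opposite sides in the lines and in myeloid cells of the same tumour; other names were picked after their values were seen. The members and lists were chosen with earlier results of these data known. Replicates of a group are separate libraries, numbered here in accession order only to name them, and nothing in the labels ties them to animals or cultures. No gene sequence is printed because the sets' genes were not analysed here.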

Additional observations from a re-analysis of the deposited data

How the results depend on the processing

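Counting each source of sets once kept all 14 counts within 1.5 times their value. The set kept per source was the one with the largest score size, so called sets were kept first and the counts could fall little. By this setting 4 of the median NES values moved by more than 0.1 and 3 did not. The median went from 0.86 to 0.11 in B16F10-bearing over YUMM3.3-bearing marrow and from -0.07 to -0.87 in YUMM3.3-bearing over healthy marrow. At FDR q below 0.25 the sets called higher were 17 in B16F10-bearing over healthy marrow, 5 in YUMM3.3-bearing over healthy marrow, 9 in B16F10-bearing over YUMM3.3-bearing marrow, 23, 17 and 19 in the same comparisons of spleen, and 24 in the lines, beside 38, 20.9, 21.7, 34.2, 23.3, 27 and 33.6% of all listed sets. Those called lower were 3, 4 and 5 in the marrow comparisons and 12 in YUMM3.3-bearing over healthy spleen, beside 16.1, 20.5, 19.1 and 23.8% of all listed sets, and the other 3 counts were unchanged. With sets of 25 to 200 genes, 1 set in place of 2 was higher in YUMM3.3-bearing over healthy marrow, and the other 13 counts stayed within 1.5 times. In this size window 3 of the median NES values moved by more than 0.1 and 4 did not. The median went from -0.07 to -0.82 in YUMM3.3-bearing over healthy marrow. It went from 1.25 to 1.39 in the lines and from 1.11 to 1.24 in B16F10-bearing over YUMM3.3-bearing spleen.

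With _DN names included, 9 sets were higher in B16F10-bearing over YUMM3.3-bearing spleen, and 2, 2, 6 and 1 were lower in B16F10-bearing over healthy marrow, YUMM3.3-bearing over healthy marrow, YUMM3.3-bearing over healthy spleen and the lines. The median NES then changed sign to 0.740 in YUMM3.3-bearing over healthy marrow, to -0.919 in YUMM3.3-bearing over healthy spleen and to -0.035 in B16F10-bearing over YUMM3.3-bearing marrow; the causes of these changes were not tested beyond the sets added. Leaving out a replicate was not run, since each value covers a whole comparison. No paired analysis was possible because the values hold no libraries and the labels give no replicate numbers. Depth is unknown here, so no value could be weighed by it.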

Other observations

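VANTVEER_BREAST_CANCER_METASTASIS_DN went with sets of the opposite ending. It had an NES of 1.76 in B16F10-bearing over healthy marrow, -1.87 in YUMM3.3-bearing over healthy marrow, 2.33 in B16F10-bearing over healthy spleen and 2.74 in YUMM3.3-bearing over healthy spleen in the authors' deposited table, all called. Its counterpart VANTVEER_BREAST_CANCER_METASTASIS_UP was called nowhere and had -1.11, -0.80, 1.06 and 1.02 in the authors' deposited table. In YUMM3.3-bearing over healthy spleen VANTVEER_BREAST_CANCER_METASTASIS_DN was the 1 _DN set called higher.

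VERHAAK_GLIOBLASTOMA_MESENCHYMAL had -1.65 in YUMM3.3-bearing over healthy spleen and 1.56 in B16F10-bearing over healthy spleen in the authors' deposited table, neither called, and 1.93 between those tumours, which was called. The first 2 comparisons share the healthy libraries.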
